A study of Mus musculus with 18 samples.

Results

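The sterol synthesis set holds genes of the pathway that makes cholesterol, together with a pair of genes that control it: Hmgcs1, Idi1, Sqle, Lss, Cyp51, Insig1 and Srebf2. The members were taken by gene symbol, and 6 of the 7 listed members were measured among 45151 symbols present in all 18 libraries. Hmgcs1 is not analysed here.

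The study profiled fat cells by RNA-seq in male wild-type C57BL/6J mice, 16 weeks old and kept on regular chow, with 6 libraries for each of 3 depots. For inguinal white fat (iWAT) and epididymal white fat (eWAT), RNA came from mature adipocytes that floated after collagenase digestion, whereas brown fat (BAT) was frozen and extracted as whole tissue, although its label also calls it adipocytes. The depots were profiled to list the receptors that each of them makes, and no group was treated. Samples are named here by depot and by the number in their title.

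Cholesterol is built from acetyl-CoA through mevalonate, which is turned into 5-carbon isoprenoid units, then into squalene and finally into sterols. When sterols in the endoplasmic reticulum fall, SCAP carries the membrane-bound transcription factor SREBP2 to the Golgi, where proteases free its active part. INSIG proteins hold SCAP back when sterols are plentiful, and the Insig1 gene is itself a target of SREBP, so the pathway limits its own output. Fat cells store much of the body's free cholesterol around and within their lipid droplets, and are known to take it up from lipoproteins more than to make it.

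In the RefSeq promoters of the members (build GRCm38.p6, 250 bases before to 50 after each start), 5 members had an entry and Sqle had none. The core of the sterol response element, searched on both strands as TCACNCCA, was found in 1 of these 5 promoters, that of Srebf2, 162 bases before its start, and in 4.36% of all 32851 promoters of that length. A CCAAT box (CCAAT, the site of NF-Y) was present in 5 of 5 against 37.4% of all promoters, and a GC box (GGGCGG, the site of SP1) in 5 of 5 against 35.7%. The E-box CACGTG was present only in the promoter of Insig1 among the 5, 101 bases before its start, against 7.15% of all promoters. Of the 15 other sterol enzymes and control genes with an entry, 0 held the sterol response core, 11 the CCAAT box, 13 the GC box and 4 the E-box. The promoter of Srebf2 is printed since it alone held the sterol response core, and those of Idi1 and Cyp51 since the levels of these enzymes varied together among the BAT samples (r = 0.887 over 6 libraries). Capitals mark the sterol response core, the CCAAT boxes and the GC boxes on either strand.
Srebf2 promoter, chr15:82147019-82147318, plus strand: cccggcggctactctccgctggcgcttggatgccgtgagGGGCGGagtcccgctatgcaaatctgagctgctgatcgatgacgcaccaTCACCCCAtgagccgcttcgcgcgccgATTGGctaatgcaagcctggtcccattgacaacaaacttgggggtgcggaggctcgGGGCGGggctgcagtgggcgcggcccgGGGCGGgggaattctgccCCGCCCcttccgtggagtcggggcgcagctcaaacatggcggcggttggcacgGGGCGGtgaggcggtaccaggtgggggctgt
Idi1 promoter, chr13:8885356-8885655, plus strand: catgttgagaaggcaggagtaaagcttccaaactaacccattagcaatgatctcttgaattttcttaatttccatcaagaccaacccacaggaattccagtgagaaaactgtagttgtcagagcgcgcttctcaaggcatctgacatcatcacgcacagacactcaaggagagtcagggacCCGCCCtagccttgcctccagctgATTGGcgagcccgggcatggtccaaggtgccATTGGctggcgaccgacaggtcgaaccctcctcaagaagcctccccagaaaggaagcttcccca
Cyp51 promoter, chr5:4104648-4104947, minus strand: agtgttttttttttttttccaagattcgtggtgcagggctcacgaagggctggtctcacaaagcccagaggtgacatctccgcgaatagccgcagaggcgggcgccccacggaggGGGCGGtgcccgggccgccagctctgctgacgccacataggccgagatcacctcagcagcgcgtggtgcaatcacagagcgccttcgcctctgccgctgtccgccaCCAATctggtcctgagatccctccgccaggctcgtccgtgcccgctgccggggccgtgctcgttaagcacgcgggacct
A match of letters is not a measured binding site. The search for the sterol response core took only the stated letters, so sites that differ from them were not counted. A promoter without a match is therefore not shown to lack a sterol response element.

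Levels per length were given as RPKM, the reads of a gene relative to the length of its counted row and to the library's total. Insig1 was the most abundant member in every depot, with 82.1 ± 17.8 RPKM in iWAT, 63.7 ± 12.6 in eWAT and 65.2 ± 18.004 in BAT (SD, n = 6 for each value in this paragraph). Idi1 came next, with 17.4 ± 1.49 RPKM in iWAT, 16.5 ± 2.58 in eWAT and 19.0 ± 5.21 in BAT. In each depot the ranges of Insig1, Idi1 and the remaining members did not overlap, since the lowest Insig1 value was 42.4 RPKM, Idi1 ran from 11.6 to 26.9 RPKM over all depots, and no other member reached more than 11.7 RPKM, a value of eWAT, where the lowest Idi1 value was 14.2 RPKM.

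The remaining 4 members stood close together. Cyp51 had 5.20 ± 0.786 RPKM in iWAT and 3.88 ± 1.06 in BAT, and Srebf2 had 4.77 ± 0.557 and 3.98 ± 0.442, so that these neighbours did not differ beyond their spread. Lss had 2.29 ± 0.396 RPKM in iWAT and 2.79 ± 0.744 in BAT. Sqle was the lowest there, with 1.72 ± 0.307 and 1.76 ± 0.718 RPKM, and its range overlapped that of Lss in both depots. In eWAT the order of the 4 was Cyp51 at 7.71 ± 1.78, Srebf2 at 6.57 ± 2.51, Sqle at 5.03 ± 1.49 and Lss at 3.93 ± 0.754 RPKM. The eWAT values rest on another kind of row. In iWAT and BAT a symbol had 1 row of merged exons, whereas eWAT rows were single transcripts, of which the most-read one was taken: the Sqle row was 6958 bases long in iWAT and BAT and 2760 in eWAT, and the Lss row 10839 and 6992, whereas those of Insig1 (2699 and 2692) and Idi1 (2930 and 2867) were nearly equal. Depot and kind of row therefore cannot be told apart for eWAT.

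**Figure D1:**
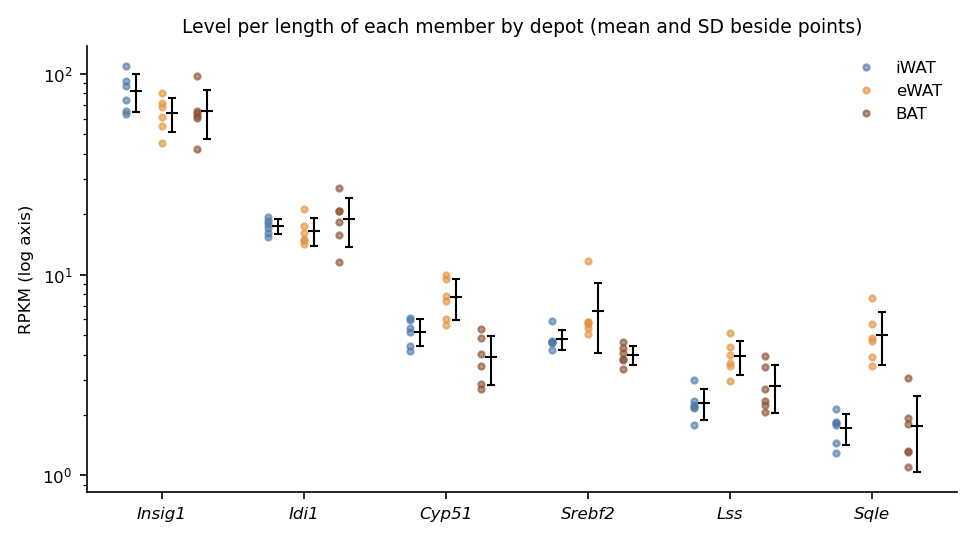
RPKM on a log axis for each member, with 1 point per library coloured by depot, and the mean with its SD in black beside them (n = 6). Insig1 sits above Idi1 and both sit above the other 4 members in every depot, and the eWAT points of Sqle lie above its iWAT and BAT points, where its counted row was longer.

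Depots were compared on read counts with edgeR, and values by sample are given as scaled RPM, the usual RPM (reads relative to the library's total) divided by edgeR's TMM factors, which level the bulk of genes between libraries. Total reads ran from 22929576 to 34512470 per library, and every member had at least 230 reads in each, so that counting error was small beside the spread between samples. Because nothing says that the samples of a depot are separate animals, p-values measure the spread between these samples.

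Between iWAT and BAT, 1 of 6 members passed an adjusted p of 0.05, where 67.8% of 19046 genes tested did, and that member was lower in iWAT, as were 33.6% of all genes. The median size of the members' log2 difference was 0.23, against 0.61 over all genes tested. Between eWAT and BAT 2 of 6 members passed, against 70.3% of 18383 genes, and both were lower in eWAT, as were 34.7% of all genes. The median size was 0.40 for the members and 0.75 for all genes. Between iWAT and eWAT 0 of 6 members passed, against 25.6% of genes, with median sizes of 0.17 and 0.27. At an unadjusted p of 0.05 edgeR likewise called 0 of the 6, DESeq2 called 0 after adjustment, and limma on RPKM, which divides by row length, called 4. Under limma far more of all genes passed than the 25.6% of edgeR, most of them lower in iWAT, with counts given further below. The comparisons share libraries, and no member had groups that did not overlap in any of them, whereas 46.8%, 49.9% and 11.7% of genes did in the same order.

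Idi1 (chr13:8884852-8891697 in mm9, plus strand) encodes the isomerase that interconverts the 5-carbon isoprenoid units. Its scaled RPM ran from 43.1 to 52.7 in iWAT (median 46.1), from 36.8 to 56.3 in eWAT (median 41.2) and from 35.7 to 97.2 in BAT (median 65.8). BAT held both the lowest and the highest value, and in it 5 of 6 samples lay above the iWAT median. The log2 difference was -0.58 ± 0.17 (SE) between eWAT and BAT, with an adjusted p of 0.00568 (edgeR), and -0.41 ± 0.18 between iWAT and BAT, with an adjusted p of 0.0548. The call in eWAT was lost in 6 of 14 other settings, among them no TMM scaling (-0.24, adjusted p = 0.165), where the median of all genes moved to 0.36, limma on log2(RPKM + 0.1) (-0.17, adjusted p = 0.305) and the transcript of highest RPKM (-0.12, adjusted p = 0.524). The difference between iWAT and BAT passed in 4 of 10 other settings, DESeq2 among them (-0.42, adjusted p = 0.0421), and it passed when BAT sample 11, the lowest, was left out (-0.57, adjusted p = 0.00182) and when BAT sample 13 was (-0.49, adjusted p = 0.0330). Outside the gene, 2 regions hold at least 200 of the distinct 32-base words of the Idi1 transcripts. The larger, a near-identical copy at chr2:53553399-53555892, holds 2407 of the 2827 words. The only counted row over these regions, ENSMUSG00000083287, carried 5.35 to 7.04% as many reads as Idi1 in iWAT and 4.62 to 6.25% in BAT. How reads that match several places were assigned is not given in the sources used here.

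Sqle (chr15:59146632-59162748, plus strand) encodes squalene epoxidase, an oxygen-dependent step of the pathway. Its scaled RPM ran from 8.56 to 14.2 in iWAT (median 11.4), from 8.77 to 20.2 in eWAT (median 12.2) and from 8.12 to 26.3 in BAT (median 12.4). The 3 ranges lay over each other, with the highest value in BAT sample 6. The log2 difference was -0.32, with a 95% interval from -0.83 to 0.20, between iWAT and BAT and -0.16, from -0.68 to 0.36, between eWAT and BAT. These intervals do not show that the depots were alike.

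Lss (chr10:75994333-76027009, plus strand) encodes lanosterol synthase, which closes the ring system of the sterols. Its scaled RPM ran from 18.5 to 30.0 in iWAT (median 22.4), from 19.9 to 33.3 in eWAT (median 24.8) and from 23.6 to 52.4 in BAT (median 32.9). The BAT values were the widest, and samples 6, 7 and 8 lay above every iWAT and eWAT sample. Lss was lower in iWAT than in BAT by a log2 difference of -0.57 ± 0.18 (adjusted p = 0.0119, edgeR) and lower in eWAT by -0.48 ± 0.17 (adjusted p = 0.0192). The call in eWAT rested on BAT sample 6, without which the difference was -0.36 (adjusted p = 0.0548), and it was lost without TMM scaling too (-0.14, adjusted p = 0.446). The direction in eWAT also depended on the row: the difference changed sign in 4 other settings, reaching 0.49. These were both limma fits on RPKM, row length as an offset and the sum over all eWAT transcript rows. Without TMM scaling the median of all genes moved to 0.28 between iWAT and BAT, the Lss difference was -0.29 (adjusted p = 0.132), and it thus stayed below the bulk of genes by a like amount. The antisense gene 4930483K19Rik shares 381 exon bases with Lss, and without strand their reads cannot be told apart.

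Cyp51 (chr5:4080674-4104746, minus strand) encodes lanosterol demethylase, the cytochrome P450 of the pathway. Its scaled RPM ran from 20.5 to 27.9 in iWAT (median 25.7), from 22.1 to 41.5 in eWAT (median 29.6) and from 15.3 to 33.4 in BAT (median 21.96). In eWAT the highest values belonged to samples 14 and 15. Their epididymis marker scores, the mean log2(RPKM + 0.1) of 5 markers, were 3.02 and 2.40, against at most -2.24 in the other eWAT samples. Sample 15 also had the highest macrophage score of eWAT, at 7.29. The part of other tissue in these Cyp51 values was not tested. The log2 difference was 0.42 ± 0.19 between eWAT and BAT (adjusted p = 0.0564, edgeR), 0.13 ± 0.18 between iWAT and BAT (adjusted p = 0.530) and -0.34 ± 0.19 between iWAT and eWAT (adjusted p = 0.210). The first of these passed without eWAT sample 7 (0.51, adjusted p = 0.0310), eWAT sample 11 (0.51, adjusted p = 0.0264), BAT sample 6 (0.54, adjusted p = 0.0173) or BAT sample 8 (0.50, adjusted p = 0.0327), and it was 0.21 (adjusted p = 0.350) without eWAT samples 14 and 15. It also passed in 8 of 14 other settings, among them DESeq2 (0.44, adjusted p = 0.0442), column sums as library size (0.45, adjusted p = 0.0438), no filter on low counts (0.47, adjusted p = 0.0441) and no TMM scaling (0.77, adjusted p = 0.000774). Without TMM, Cyp51 passed between iWAT and BAT as well (0.42, adjusted p = 0.0362).

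Insig1 (chr5:28397903-28405204, plus strand) encodes the sterol-sensing anchor of SCAP. Its scaled RPM ran from 162.9 to 260.2 in iWAT (median 209.8), from 118.1 to 201.0 in eWAT (median 161.5) and from 131.3 to 329.2 in BAT (median 194.9). The eWAT samples were on the low side, although they overlapped with both other depots. The log2 difference was -0.38 ± 0.19 between eWAT and BAT (adjusted p = 0.0727, edgeR), 0.38 ± 0.19 between iWAT and eWAT (adjusted p = 0.142) and 0.04 ± 0.19 between iWAT and BAT (adjusted p = 0.848). The difference between eWAT and BAT passed without eWAT sample 14 (-0.46, adjusted p = 0.0424), BAT sample 11 (-0.45, adjusted p = 0.0481) or BAT sample 13 (-0.50, adjusted p = 0.0174). A stretch at chr3:69767126-69769214 holds 1194 of the 2616 distinct 32-base words of Insig1, and no counted row lies over it.

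Srebf2 (chr15:81977634-82035807, plus strand) encodes SREBP2, the transcription factor of the pathway, and its span holds the microRNA gene Mir33, which shares no exon base with it. Its scaled RPM ran from 28.2 to 39.0 in iWAT (median 29.9), from 23.4 to 55.8 in eWAT (median 26.0) and from 27.02 to 37.3 in BAT (median 32.5). Apart from eWAT sample 15, the eWAT samples ran no higher than 27.3 and lay below all 6 iWAT samples. With all samples the log2 difference was -0.01 (95% interval from -0.21 to 0.20) for iWAT against BAT, -0.08 (from -0.45 to 0.28) for eWAT against BAT and 0.03 (from -0.34 to 0.40) for iWAT against eWAT. Without eWAT sample 15, Srebf2 was lower in eWAT than in BAT (log2 difference -0.34, adjusted p = 0.00317, edgeR) and higher in iWAT than in eWAT (0.29, adjusted p = 0.0310). That sample had a macrophage marker score, the mean log2(RPKM + 0.1) of 6 markers, of 7.29, where the other eWAT samples had 3.70 to 5.08. Its adipocyte score was 10.0, against 10.7 to 11.02. The part of these cells in the Srebf2 value was not tested.

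**Figure D2:**
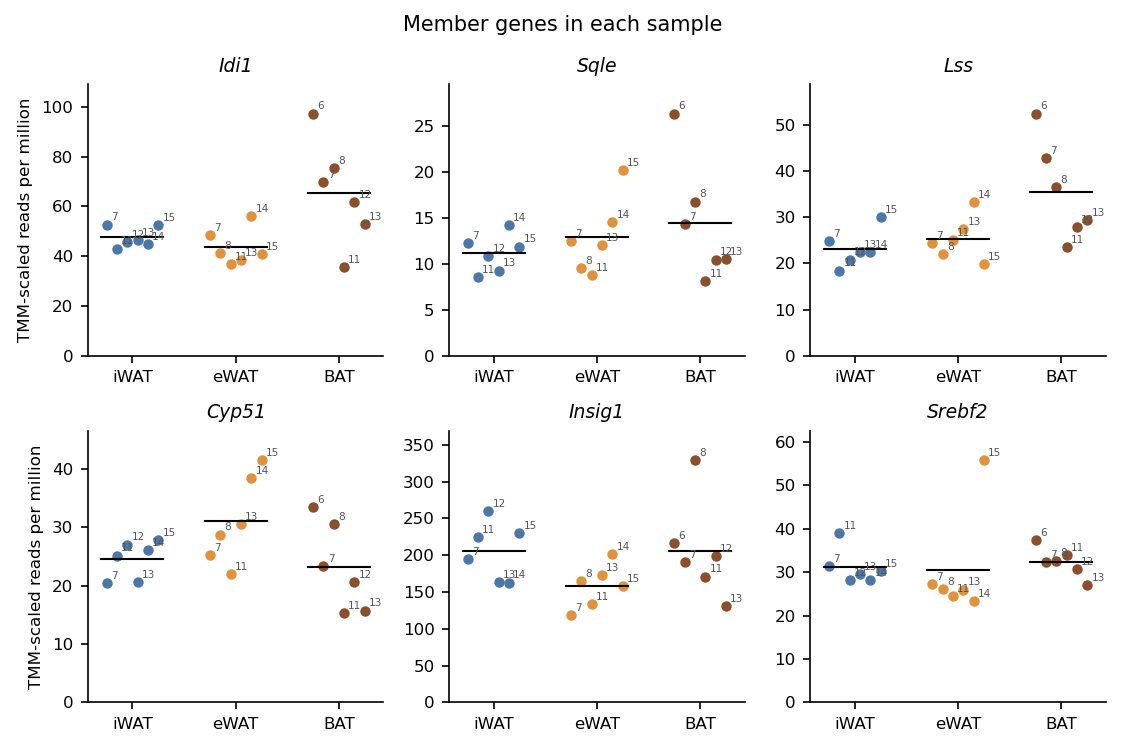
TMM-scaled RPM of each member in every library (points, labelled with the sample number) by depot, with the depot mean as a black bar (n = 6). Relative to their mean, the BAT points spread the widest for the 4 enzymes and Insig1, and eWAT sample 15 stands alone for Srebf2 at 55.8.

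**Figure D3:**
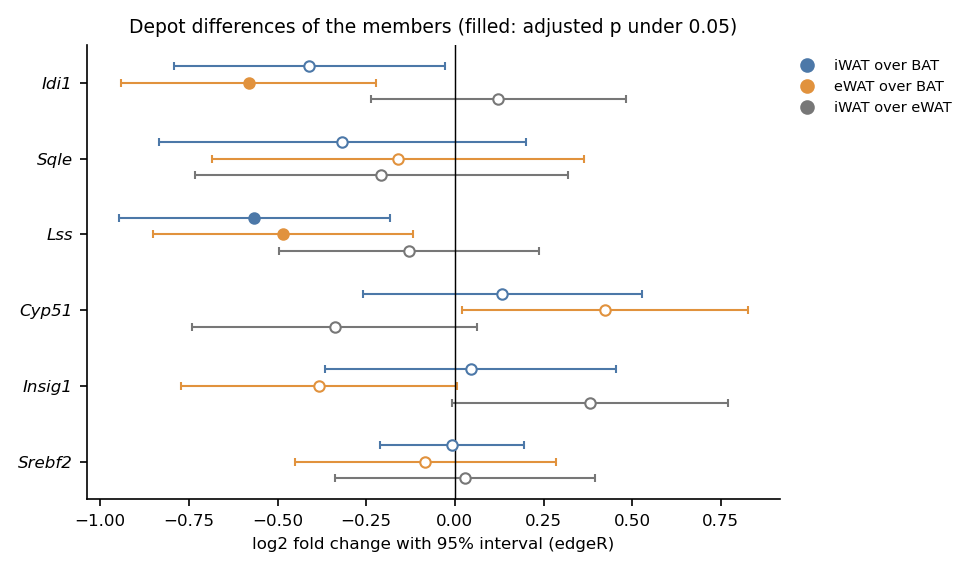
Log2 fold change of each member with its 95% interval from edgeR in the 3 depot comparisons, filled where the adjusted p was under 0.05. The 3 filled points are Idi1 between eWAT and BAT and Lss in both comparisons with BAT, all between -0.58 and -0.48, and most of the other intervals cross 0.

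The directions in eWAT depended on which row stood for a gene. With row length as an offset, Sqle was higher in eWAT than in BAT (log2 difference 1.17, adjusted p = 0.000362), Cyp51 too (0.65, adjusted p = 0.00522) and Srebf2 (0.40, adjusted p = 0.0437), whereas Lss was at 0.15 (adjusted p = 0.447). The offset moved the median of all genes to 0.48 in that comparison and to -0.38 between iWAT and eWAT, so that Srebf2 stood slightly below and Sqle above the bulk of genes. When the reads of all eWAT transcript rows were summed, Cyp51 was higher in eWAT than in BAT by 1.42 (adjusted p = 2.23e-06). Transcript rows of 1 gene share exons, so that a read can count more than once in that sum. The comparison of iWAT with BAT used a single kind of row and did not carry this limit.

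The members also varied among samples of the same depot. The coefficient of variation of the scaled values in BAT was 45.7% for Sqle, 32.6% for Cyp51, 32.4% for Insig1, 31.9% for Idi1 and 30.3% for Lss, but 10.6% for Srebf2. In iWAT it ran from 8.55% for Idi1 to 19.0% for Insig1. In BAT samples 6, 7 and 8 lay above samples 11, 12 and 13 for each of Idi1 (at least 69.7 against at most 61.8 scaled RPM), Sqle (14.3 against 10.5), Lss (36.6 against 29.3) and Cyp51 (23.3 against 20.6). The same division did not hold for Insig1, where sample 8 was the highest at 329.2 and sample 7, at 190.5, lay below sample 12 at 199.3. The labels name no batch for these samples. This division was chosen after the values were seen, and the share of all genes that divide the same way was not counted. The enzymes varied together in BAT, as given below, so they are not separate instances of it.

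The members' deviations from their depot means, as log2(RPKM + 1), were then set against each other over the 18 libraries. Among the 15 pairs, Pearson's r had a median of 0.41 and ran from -0.41 to 0.79, with 5 pairs above 0.5. The closest pairs were Cyp51 with Sqle (0.79), Lss with Idi1 (0.77), Cyp51 with Insig1 (0.68), Sqle with Idi1 (0.62) and Cyp51 with Idi1 (0.61). Within BAT the 4 enzymes gave r from 0.79 to 0.92 in all of their pairs, over 6 libraries. In eWAT Cyp51 and Sqle reached 0.84 but Sqle and Lss -0.22, and in iWAT Lss and Idi1 reached 0.90 but Cyp51 and Idi1 0.05. Srebf2 mRNA had its r between -0.41 and 0.41 against all others over the 18 libraries, but the depots differed in sign: with Sqle it was -0.81 in iWAT and 0.75 in eWAT, and with Lss -0.75 in eWAT and 0.21 in BAT. In both white depots these r values include a sample that stood apart for Srebf2. The eWAT sample 15 had the highest Srebf2 (55.8 scaled RPM) and Sqle (20.2) and the lowest Lss (19.9) of its depot. The iWAT sample 11 had the highest Srebf2 (39.0) and the lowest Sqle (8.56) of its depot. The r values without these samples were not computed. The points of a pair share a library and its depth, and these correlations are descriptions without a test. The mean deviation of the members had an r of 0.10 with the total reads, 0.36 with the brown adipocyte score and 0.07 with the macrophage score, and over the 10 marker scores r ran from -0.41 for mesothelium to 0.52 for epididymis. The epididymis score lay at or near its floor of -3.322 in every iWAT and BAT sample. Its r therefore rests mainly on eWAT samples 14 and 15, with scores of 3.02 and 2.40.

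**Figure D4:**
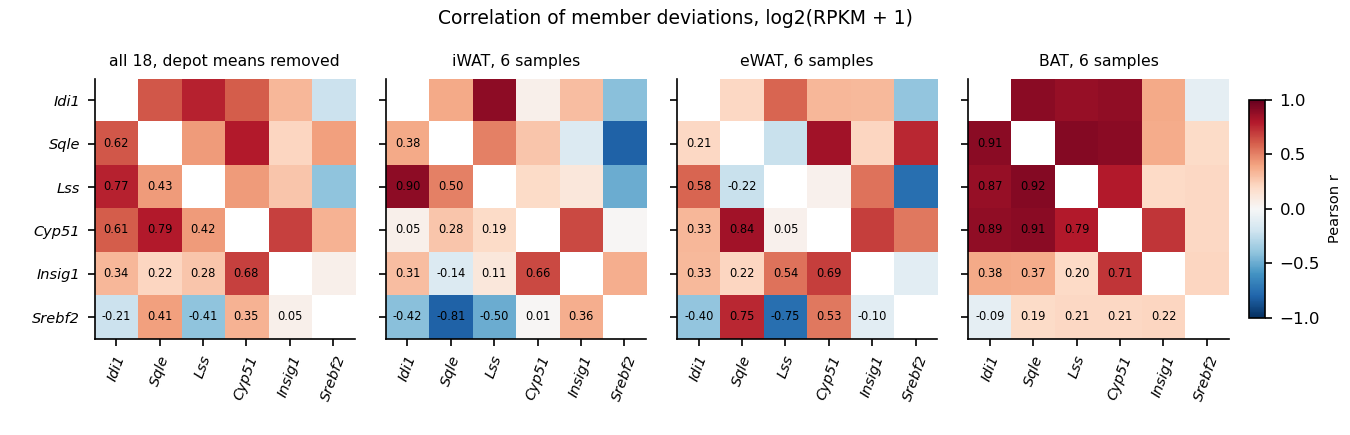
Pearson's r between the members' deviations of log2(RPKM + 1) over all 18 libraries with the depot means removed, and in the 6 libraries of each depot. The block of 4 enzymes in BAT runs from 0.79 to 0.92, while the row of Srebf2 holds values of either sign.

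The 10 non-member symbols whose deviations were most like the mean deviation of the members, of 10331 symbols compared, were LOC100505102 (r = 0.88), Serp1 (0.82), Mlx (0.80), Psmd14 (0.75), Zdhhc6 (0.73), Acsl5 (0.73), Haus3 (0.72), Snx10 (0.72), AK081594 (0.71) and LOC100045967 (0.71). Serp1 encodes a small protein of the endoplasmic reticulum membrane, Mlx a partner of glucose-responsive transcription factors, Psmd14 a subunit of the proteasome and Acsl5 a long-chain acyl-CoA synthetase. The median over all symbols was -0.07 and the 95th percentile 0.36. Fdps, the farnesyl diphosphate synthase of the same pathway, was the 11th at 0.71, and Nsdhl, a later enzyme, the 23rd at 0.68. These were the 2 other sterol enzymes among the top 40.

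The other enzymes of the pathway were called in either direction. Of 15 other sterol synthesis enzymes tested, 6 were higher and 5 lower in iWAT than in BAT (34.2% and 33.6% of all genes), 6 were higher and 7 lower in eWAT than in BAT (35.6% and 34.7%), and 1 was higher and 1 lower in iWAT than in eWAT (13.4% and 12.3%). The median log2 difference between iWAT and BAT was -0.17, against 0.01 over all genes. Among the 4 most abundant, Pmvk (phosphomevalonate kinase) was lower in iWAT by -0.92 ± 0.19 (adjusted p = 0.000565, edgeR) and Acat2, the cytosolic thiolase that makes acetoacetyl-CoA, by -1.27 ± 0.15 (adjusted p = 5.5e-06). Fdft1, squalene synthase, was lower by -0.67 ± 0.10 (adjusted p = 5.79e-05), whereas Sc5d, a late desaturase, was higher by 0.68 ± 0.22 (adjusted p = 0.0151). Pmvk, Acat2 and Fdft1 were lower in eWAT than in BAT too, and Sc5d, at 0.17 ± 0.21, did not pass. These eWAT calls compare reads of different kinds of row. Per length and without TMM scaling, Fdft1 was instead higher in eWAT, with a mean of 13.4 RPKM against 10.7 in BAT. Pmvk (20.7 against 28.1) and Acat2 (14.9 against 30.6) stayed lower in eWAT on that scale. The same limit holds for the eWAT counts of all other lists. With the members counted in, iWAT exceeded BAT for 6 of 19 enzymes and fell below it for 6.

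**Figure D5:**
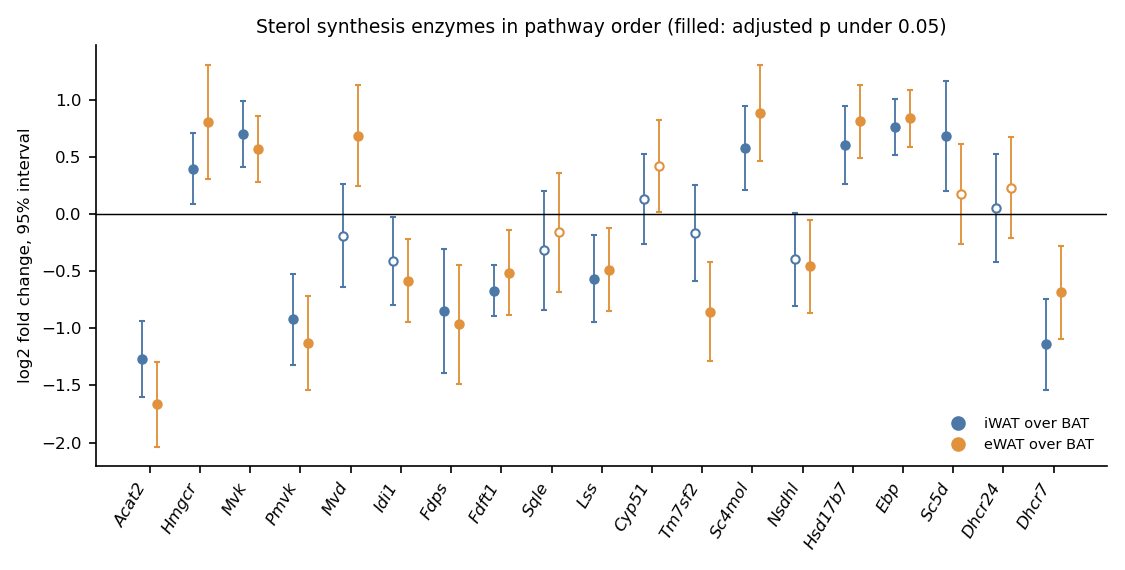
Log2 fold change with its 95% interval for 19 sterol synthesis enzymes, from the start of the pathway on the left to its end on the right, for iWAT over BAT and eWAT over BAT, filled where the adjusted p was under 0.05. Filled points lie on either side of 0 along the whole pathway, from Acat2 at -1.66 to Sc4mol at 0.89 in eWAT over BAT. The eWAT points compare different kinds of row, so their direction can depend on row length.

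Of 5 other control genes, 2 were higher and 0 lower in iWAT than in BAT, 1 was higher and 1 lower in eWAT than in BAT, and 3 were higher and 1 lower in iWAT than in eWAT, where 67.8%, 70.3% and 25.6% of all genes were called in either direction. Insig2, the second INSIG, was the only one to pass in all 3 comparisons, with a log2 difference of 0.70 ± 0.10 for iWAT against BAT, 0.99 ± 0.11 for eWAT against BAT and -0.34 ± 0.11 for iWAT against eWAT (adjusted p = 0.0320, edgeR, for the last). Insig1 exceeded Insig2 in every sample, with a ratio of RPKM of 8.82 ± 2.22 in BAT, 5.78 ± 1.58 in iWAT and 2.73 ± 0.698 in eWAT (SD, n = 6). Srebf1, which encodes the related factor of fatty acid synthesis, was the more abundant of the SREBP genes per length, with a ratio of Srebf2 to Srebf1 RPKM of 0.149 ± 0.0910 in BAT, 0.0872 ± 0.0185 in iWAT and 0.158 ± 0.121 in eWAT. Its log2 difference between iWAT and BAT was 0.56 ± 0.24 (adjusted p = 0.0559). Mbtps1, the Golgi protease that makes the initial cut, was higher in iWAT than in BAT by 0.21 ± 0.07 (adjusted p = 0.00965), and Scap was lower in eWAT than in BAT by -0.38 ± 0.07 (adjusted p = 0.000151).

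Of 8 genes of sterol uptake and transport tested, 4 were higher and 1 lower in iWAT than in BAT, with the same counts in eWAT against BAT. Of all genes, 34.2% were higher and 33.6% lower in iWAT, and 35.6% and 34.7% in eWAT. Between iWAT and eWAT 0 of the 8 passed, where 25.6% of all genes did. There 1 of the 8, Vldlr, had an unadjusted edgeR p under 0.05 (adjusted p = 0.0632). Lrp1, a large endocytic receptor, was higher in iWAT than in BAT by 1.60 ± 0.19 (adjusted p = 4.33e-06, edgeR) and in eWAT by 1.30 ± 0.19 (adjusted p = 7.68e-06), with 31.4 ± 9.68 RPKM in iWAT and 8.60 ± 0.727 in BAT (SD, n = 6). Npc2, which carries cholesterol within lysosomes, differed by 0.77 ± 0.10 between iWAT and BAT and Mylip, a ubiquitin ligase, by 0.70 ± 0.26. Npc1, the lysosomal membrane partner of Npc2, was lower in iWAT than in BAT by -0.67 ± 0.06.

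Of 6 fatty acid genes driven by SREBP1, 0 were higher and 5 lower in iWAT than in BAT, and 6 were lower in eWAT (33.6% and 34.7% of all genes were lower), with a median log2 difference of -2.10 between iWAT and BAT. Elovl6 (-3.37 ± 0.41), Acly (-3.05 ± 0.34), Fasn (-2.16 ± 0.30) and Acaca (-2.04 ± 0.26) had the largest differences.

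The depot labels were checked against marker lists. The 6 brown adipocyte markers were lower in iWAT and in eWAT than in BAT in 6 of 6 cases each, and their summed level was 79.8 to 126 RPKM in iWAT, 14.1 to 27.8 in eWAT and 3012 to 3753 in BAT. The 6 general adipocyte markers were higher in iWAT than in BAT in 6 of 6 cases, with sums of 16040 to 20560 RPKM in iWAT, 10920 to 20010 in eWAT and 5796 to 7056 in BAT, and in whole tissue fewer adipocytes cannot be told apart from less RNA per cell. Early response genes of tissue dissociation such as Fos and Jun, 6 of 6 higher in iWAT and in eWAT, summed to 1792 to 2728 RPKM in iWAT, 1261 to 2027 in eWAT and 13.2 to 55.3 in BAT, so that depot and digestion cannot be told apart. Macrophage markers were higher in eWAT than in BAT in 6 of 6 cases and summed to 142.6 to 2013 RPKM in eWAT against 27.8 to 144 in iWAT and 21.1 to 49.0 in BAT. Epididymis markers were at 0 in every iWAT sample and had scores of 3.02 and 2.40 in eWAT samples 14 and 15, against at most -2.24 in the other eWAT samples. Skeletal muscle markers reached a score of 7.75 in BAT sample 12, where the remaining BAT samples had -2.41 to 4.23, and leaving that sample out changed no member's call.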

How the data were processed

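RNA-seq was run on 6 libraries per depot. Per the labels the reads were trimmed with cutadapt 1.16 and mapped with HISAT2 2.1.0 to mm9, and the paper names the Genomatix Genome Analyzer for expression; the aligner's settings and the handling of strand and of reads with several matches are not given in the sources used here. The authors deposited, for each library, read counts and RPKM per merged gene row (iWAT, BAT) or per transcript row (eWAT). A symbol was represented by its most-read row. Rows that reached 10 reads in 6 or more samples were tested with edgeR 4.0.16 (R 4.3.3; quasi-likelihood test, TMM, library size the reads behind RPKM, Benjamini-Hochberg over all rows tested), iWAT against BAT on their 12 libraries and the 2 eWAT comparisons on all 18. Alternatives were DESeq2 1.42.0, limma 3.58.1 on log2(RPKM + 0.1) and log2(RPKM + 1), other scaling, filters and rows, a block and leaving out each sample. Correlations used log2(RPKM + 1). The members and all lists were chosen with earlier results of these data known. A gene of the uptake list is not reported here. Genes were named by a written rule: the members; of the other sterol enzymes and control genes the 4 with the largest mean RPKM, where fewer than 4 were called in all 3 comparisons; of other lists at most 4 with the largest differences among those called between iWAT and BAT and averaging 1 RPKM or more in the depot that had more; and the 10 most alike symbols. Tested on simulated data, the fit called 144 of 194 genes changed by a log2 fold of 1 and 4 of 18586 unchanged genes in the iWAT and BAT design, and 138 of 199 and 6 of 17927 in that of eWAT and BAT. The simulation changed few genes, about as many up as down, and held no difference in kind of row. In the data 67.8% and 70.3% of genes were called in these comparisons. It therefore cannot show how TMM scaling or the kind of row affects the calls. Copies were sought as 32-base words of GENCODE M1 transcripts in NCBIM37, which is mm9, in regions with at least 200 distinct words.

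Total reads were 22929576 to 32141048 in iWAT, 26607733 to 34048018 in eWAT and 26706786 to 34512470 in BAT. Replicates correlated at 0.968 to 0.993 in iWAT, 0.933 to 0.992 in eWAT and 0.975 to 0.993 in BAT (Pearson's r of log2(RPKM + 1) across genes).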

Additional observations from a re-analysis of the deposited data

Results flagged for a closer look

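Among 18 sets of 6 samples (6 members in 3 depots), 2 had a sample that stood apart from its depot, where chance flags about 1 in 20 sets. Both were for Srebf2. In eWAT, sample 15 had 55.78 scaled RPM (reads relative to the library's total, divided by the TMM factor), where the others had 23.41 to 27.32, and the gap was 0.879 of the whole range. In iWAT, sample 11 had 38.99, where the others had 28.22 to 31.42, and the gap was 0.703 of the range. Leaving out iWAT sample 11 moved the difference between iWAT and eWAT from 0.03 to -0.05 (adjusted p = 0.886, edgeR) and no member was called in that comparison.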

How the results depend on the processing

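The sample numbers of the titles recur across depots, and whether a number marks an animal is not given in the labels. The deviations of same-numbered samples had a mean r of 0.0276 over the 4 numbers that iWAT shares with BAT. It was -0.056 over the 4 that eWAT shares with BAT and -0.109 over the 5 of both white depots. Such values over 4 or 5 numbers cannot show that the samples are unpaired. The main fits left the numbers out, so any pairing by animal is not accounted for in their p-values. With the number as a replicate block over the samples that share one, the calls were 2 members in iWAT against BAT (Lss, and Insig1 at 0.33 with an adjusted p of 0.0300), 0 in eWAT against BAT and 1078 genes between iWAT and eWAT (against 4714), and Srebf2 between iWAT and BAT was at 0.089. Between iWAT and BAT 2 members, Lss and Idi1, were called with DESeq2, with all 18 samples in the fit (Insig1 at -0.0022), with column sums as library size and with a mean RPKM of at least 1 (Insig1 at -0.019), but Cyp51 and Srebf2 in place of Lss with both limma fits (Sqle at 0.033 and 0.0096, Srebf2 at 0.25 and 0.21 for pseudocounts of 0.1 and 1) and without TMM (Srebf2 at 0.26). Without a filter Srebf2 was at 0.050. Between eWAT and BAT, 3 members were called with DESeq2, column sums and no filter (Cyp51 added) and with a mean RPKM of at least 1 (Insig1 added), and no TMM gave 1, Cyp51 at 0.77, while Idi1 and Lss lost their calls, with Sqle at 0.18 and Srebf2 at 0.24, and medians of all genes at 0.28 (iWAT and BAT), 0.36 (eWAT and BAT) and -0.01; of all calls 66.0% and 66.3% were then higher in iWAT and eWAT than in BAT, against 50.4% and 50.6%. Settings that change row length or choice moved eWAT. In eWAT against BAT, limma called 4 members, with Sqle at 1.4996 and 1.13, Lss at 0.49 and 0.39 and Srebf2 at 0.65 and 0.56; the length offset called 4, with Sqle at 1.17, Lss at 0.15 and Srebf2 at 0.40; the sum of transcripts put Sqle at 0.32, Lss at 0.23 and Srebf2 at 0.53; the transcript of highest RPKM put Sqle at 0.28, Cyp51 at -0.43, Insig1 at 0.049 and Srebf2 at 0.31; and rows identical in both kinds of file, which hold no member, gave 3828 genes. In iWAT against eWAT, limma called 4 members, 9631 and 9483 genes (10.3% and 10.1% of them higher in iWAT, against 52.2%) with Srebf2 at -0.40 and -0.35; the offset 4 members and 9656 genes (10.6%) with Srebf2 at -0.46; the sum 4 members and 13584 genes with Idi1 at -0.10 and Srebf2 at -0.56; the highest RPKM 2 members and 10523 genes with Idi1 at -0.29, Lss at 0.16, Cyp51 at 0.55, Insig1 at -0.013 and Srebf2 at -0.32; and identical rows 726 genes. Of calls between eWAT and BAT, 77.9% and 77.8% under limma and 69.2% under the offset were higher in eWAT. Leaving out eWAT samples 14 and 15, chosen after seeing the data, put Sqle at 0.061 between iWAT and eWAT. Leaving out 1 sample gave 11917 to 12861, 12087 to 13030 and 3883 to 5157 genes and 1 to 2, 2 to 3 and 0 to 1 members in the 3 comparisons, with Insig1 from -0.083 to 0.20 and Srebf2 from -0.080 to 0.034 between iWAT and BAT, Sqle from -0.33 to 0.080 between eWAT and BAT, and Srebf2 from -0.046 to 0.29 between iWAT and eWAT. Of the member values under the other settings, 148 kept their direction and call, 31 gained a call, 11 lost it and 38 changed sign; apart from the row settings, the cause was not tested. The correlation of members was 0.33 with log2(RPKM + 0.1). Depth limited little, since every member had at least 230 reads in each library.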

Other observations

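Of 11 genes that move sterols out of cells or store them, 7 were higher and 3 lower in iWAT than in BAT, where 34.2% and 33.6% of all genes were, and 7 were higher and 2 lower in eWAT than in BAT, where 35.6% and 34.7% were. Apoe, the lipoprotein that accepts cholesterol, was higher in iWAT than in BAT by 2.62 ± 0.16 on the log2 scale, and so were the sterol exporters Abcg1 (2.40 ± 0.15) and Abca1 (1.74 ± 0.23), whereas Cyp27a1, a sterol hydroxylase, was lower (-1.73 ± 0.13). Apoe had 1436 ± 263 RPKM in iWAT, 1232 ± 256.4 in eWAT and 197 ± 49.3 in BAT (SD, n = 6). Between iWAT and eWAT, where 13.4% of all genes were higher in iWAT and 12.3% lower, 2 of the 11 were higher and 4 lower. Of these, Soat1 and Nceh1, which esterify cholesterol and cleave its esters, had a mean ± SD of 6.69 ± 9.79 and 10.3 ± 17.0 RPKM in eWAT, where the highest samples reached 26.5 and 44.8 (named here after their values were seen), and 0.674 ± 0.219 and 0.681 ± 0.278 in iWAT. Macrophage markers moved with eWAT, as given in the report, and their part in these values was not tested.

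Of 7 genes of the isoprenoid branch, 1 was higher and 4 lower in iWAT than in BAT, and 2 were higher and 5 lower in eWAT, where 67.8% and 70.3% of all genes were called in either direction. Pdss2, which builds the side chain of ubiquinone, was lower in iWAT by -1.07 ± 0.11, Coq2 of the same pathway by -0.44 ± 0.07 and Fntb, a farnesyltransferase subunit, by -0.39 ± 0.08, while Dhdds, which makes dolichol, was higher by 0.75 ± 0.08.

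Of the remaining marker lists, 1 of 6 endothelial genes was higher and 1 lower in iWAT than in BAT, and 3 of 6 fibroblast genes were higher and 3 lower. Of all genes, 34.2% were higher and 33.6% lower in that comparison. Lymphocyte genes summed to at most 1.19 RPKM in any sample and none passed the filter. Of 5 mesothelial genes, 2 were higher and 1 lower in eWAT than in BAT among the 3 tested, where 35.6% and 34.7% of all genes were.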
